A study of Homo sapiens with 8 samples.

Results

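The comparison described here asked whether cells labelled SKOV3 and cells labelled A2780 changed their transcripts by different amounts at 46 °C. Both labels are names of established human ovarian cancer lines. For each gene the difference between the responses was (SKOV3 at 46 °C minus SKOV3 at 37 °C) minus (A2780 at 46 °C minus A2780 at 37 °C) on normalized log2 intensity. A negative value means that SKOV3 rose less or fell more. All 8 samples of the series entered, in 4 groups of 2: A2780 controls and SKOV3 controls at 37 °C, and A2780 and SKOV3 cells given hyperthermia at 46 °C. Biotin-labelled cRNA from total RNA was hybridised to Illumina BeadChips, and 14189 of the 20046 named genes on the array were tested. The labels name no treatment other than the temperature, and give neither the length of the exposure nor the time of collection. They do not say whether the 2 samples of a group were separate cultures, so the p-values measure only the spread between these samples, which may be technical.

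Heat that unfolds proteins activates heat-shock factor 1, which drives chaperone genes such as HSPA1A and HSPA6. In parallel, stress-activated and mitogen-activated kinases switch on immediate early genes such as EGR1 and JUN within minutes, and kinases that phosphorylate the initiation factor eIF2 lead, through the transcription factor ATF4, to genes such as CHAC1 and STC2. Cell lines can differ in these arms both in the level from which a gene starts and in how far it moves.

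The median probe signal was 114 to 144 per array. On 7 arrays 37.6% to 39.7% of probes lay above background, and on A2780 control 2 43.9% did. That array also had the highest upper quartile of signal, 317 against 181 to 243. The line names below are those of the labels. The marker values that follow did not establish them, so the identity of the lines is in doubt. ERBB2, a receptor gene known to be amplified in SKOV3 cells, was not higher in the samples labelled SKOV3: its 1 probe above background read 9.25 and 9.49 in the A2780 controls and 9.45 and 9.50 in the SKOV3 controls, a difference of 0.10 ± 0.13 (SE, n = 2 per group, adjusted p = 0.629). Of 12 markers of ovarian carcinoma and epithelium, 1 was above background on both arrays of the A2780 controls and 3 in the SKOV3 controls. In heated A2780 0 were, and in heated SKOV3 2. EPCAM, KRT18 and KRT19 were above background on both arrays of at least 1 group. CDH1, ESR1, FOLR1, KRT7, KRT8, MSLN, MUC16, PAX8 and WT1 were not in any group. Of 5 mesenchymal markers, 3 (CDH2, SPARC and VIM) were above background in each A2780 group and 2 of these in each SKOV3 group. All 5 fibroblast markers (COL1A1, COL1A2, DCN, LUM and PDGFRB) were above background in both A2780 groups, against 0 in the SKOV3 controls and 1 in SKOV3 at 46 °C. Of 7 leukocyte markers on the array, 2 (CD14 and ITGAM) were above background in A2780 at 46 °C, 1 of them in SKOV3 at 46 °C and 0 in the controls. The log2 of the summed intensity of the 7 was 8.97 to 9.03 in the A2780 controls and 10.02 to 10.13 in heated A2780. It was 9.06 to 9.11 in the SKOV3 controls and 9.83 to 9.84 in heated SKOV3. The leukocyte genes PTPRC, CD3D, CD3E, LYZ and MS4A1 were not above background on both arrays of any group. The part of these markers in the results was not tested.

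Of the 14189 genes, 14 (0.0987%) passed the test of the difference (limma, Benjamini-Hochberg adjusted p under 0.05). In 10 (0.0705%) the response was more negative in SKOV3, and in 4 (0.0282%) it was more positive. The 14 fell into 4 kinds. EGR1, HBEGF, DHDH and NPTX2 rose in both lines, each less in SKOV3. STC2, IER3, CITED2, TSC22D3, CHAC1 and TUFT1 rose in A2780 and did not pass the test in SKOV3. CDKN1A and RGS16 rose in SKOV3 and did not pass in A2780, and DKK1 and SNORA12 fell in A2780 and did not pass in SKOV3. In all 14, the 4 differences between 1 heated and 1 control array of SKOV3 lay outside the 4 of A2780, as they did for 3148 genes (22.2%) among all those tested. RNA was taken from whole samples, so fewer cells making a transcript and less of it per cell cannot be told apart.

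These counts depended on the scaling between arrays and on single arrays. With each array scaled to its median in place of quantile normalization, 12 genes passed, of which 10 were more positive and 2 more negative in SKOV3, so the split turned over. Under that scaling the median gene itself had a difference of 0.27, against -0.01 with quantile normalization. The median-scaled values given below for single genes include that shift. Relative to the median gene, median scaling gave -1.19 for CITED2, -1.36 for TSC22D3, -0.96 for TUFT1 and -1.08 for HBEGF. With quantile normalization these were -1.57, -1.52, -1.18 and -1.05. Among fits without 1 array, most genes passed without A2780 control 1, when A2780 control 2 stood alone for its group. Fewer than 14 passed without A2780 control 2, without either heated A2780 array and without either SKOV3 control. The direction of each of the 14 genes was the same under both scalings and without each array. No gene passed a test for a difference of more than 2-fold, under which 10 genes had an unadjusted p under 0.05, although 36 genes had an estimate of at least 2-fold.

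**Figure D1:**
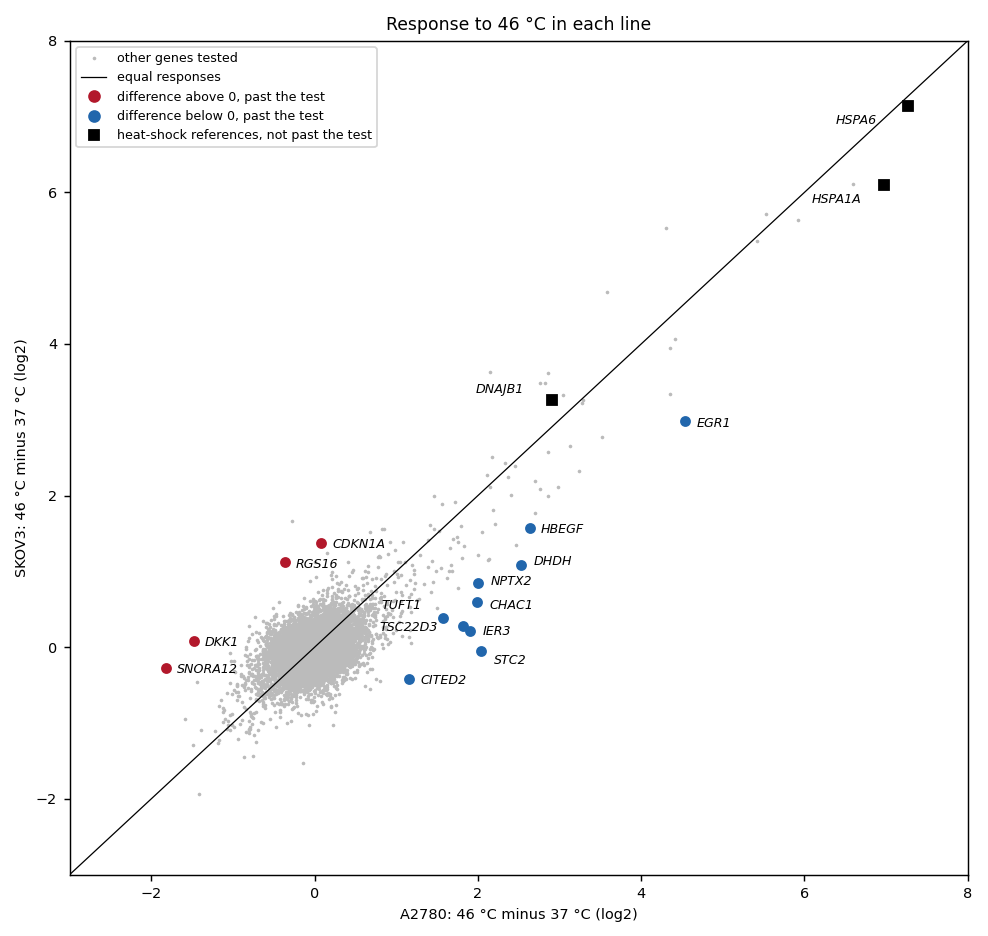
Response to 46 °C of every gene tested, in A2780 (horizontal axis) and SKOV3 (vertical axis), as the log2 difference between group means (n = 2 per group). The 10 blue points below the line of equal responses and the 4 red points above it passed the test of the difference. HSPA6, HSPA1A and DNAJB1 (black squares) did not.

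The promoters of 3 genes are shown, chosen after the motif search. EGR1 held CArG boxes, CHAC1 held the element TGATGNAA, and STC2 had the largest difference of the genes that passed. Others with a searched motif, among them NPTX2 and DHDH, are not shown. Each promoter shown is the 300 bases from 250 before to 50 after the gene's start in RefSeq on GRCh38.p14, written 5′ to 3′ on the gene's strand. EGR1 lies at chr5:138465229-138465528 on the plus strand, and its capitals mark CArG boxes, which bind serum response factor, and the cyclic AMP response half-site TGACG, here as its reverse complement. CHAC1 lies at chr15:40953221-40953520 on the plus strand, with an amino acid response element of the kind that binds ATF4 (reverse complement of TGATGNAA) and CCAAT boxes in capitals. STC2 lies at chr5:173328365-173328664 on the minus strand, with a CCAAT box in capitals.
EGR1: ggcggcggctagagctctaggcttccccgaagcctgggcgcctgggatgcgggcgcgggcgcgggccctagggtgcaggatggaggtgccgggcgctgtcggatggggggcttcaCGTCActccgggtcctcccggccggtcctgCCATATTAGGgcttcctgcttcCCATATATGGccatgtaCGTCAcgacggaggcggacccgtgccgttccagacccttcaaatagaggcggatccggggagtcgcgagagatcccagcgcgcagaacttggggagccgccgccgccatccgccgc
CHAC1: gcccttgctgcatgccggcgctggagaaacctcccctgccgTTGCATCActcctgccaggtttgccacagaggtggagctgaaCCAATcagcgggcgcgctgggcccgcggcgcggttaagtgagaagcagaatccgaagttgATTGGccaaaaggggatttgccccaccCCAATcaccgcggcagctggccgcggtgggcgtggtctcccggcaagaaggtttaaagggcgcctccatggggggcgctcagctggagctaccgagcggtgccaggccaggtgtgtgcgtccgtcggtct
STC2: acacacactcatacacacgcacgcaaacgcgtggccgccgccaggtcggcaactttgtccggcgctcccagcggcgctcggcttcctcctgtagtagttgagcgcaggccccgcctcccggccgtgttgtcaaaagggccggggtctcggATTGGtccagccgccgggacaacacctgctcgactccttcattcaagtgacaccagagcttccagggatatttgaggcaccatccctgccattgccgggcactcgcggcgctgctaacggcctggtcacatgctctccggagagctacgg

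Promoters were at hand for 12 of the 14 genes, and 8 motifs were searched on both strands. The heat-shock element, read as GAA, 2 free bases, TTC, 2 free bases and GAA, was in 0 of the 12 and in 0.487% of 27305 promoters. The CArG box was in 1 of 12, EGR1 (1.29% of all promoters), and the element TGATGNAA in 1, CHAC1 (3.67%). The EGR motif GCGGGGGCG was in 1, NPTX2 (5.02%). The full cyclic AMP response element TGACGTCA was in 0 (1.98%), and its half-site TGACG, which the full element contains, in 3 (25.0%). The AP-1 motif TGACTCA was in 0 (4.92%). CCAAT was in 5 (35.7%). These are descriptions of letters in the window, and no test was made of them.

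The immediate early gene with the largest rise among the 14 was EGR1, a zinc-finger transcription factor induced by growth factors and stress. Its 2 A2780 controls read 7.59 and 7.47, and the heated A2780 arrays 12.14 and 11.99. The SKOV3 controls read 9.04 and 8.97, and the heated SKOV3 arrays 11.94 and 12.04. The lines thus differed at 37 °C and overlapped at 46 °C. In the deposited signals, before any normalization, EGR1 went from 278 and 341 to 5157 and 3692 in A2780, and from 531 and 485 to 3739 and 3928 in SKOV3. EGR1 rose by 4.54 ± 0.13 in A2780 (SE, n = 2 per group), a 23.3-fold change, and by 2.98 ± 0.13 in SKOV3, 7.90-fold. The difference was -1.56 ± 0.18 (adjusted p = 0.0026), with a 95% interval of -1.95 to -1.17. SKOV3 started 1.48 above A2780 (adjusted p = 8.14e-07), and at 46 °C its level was -0.08 ± 0.13 from that of A2780 (adjusted p = 0.727). Without SKOV3 control 1 the adjusted p of the difference was 0.0526, and with median scaling it was 0.0578.

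IER3, an early response gene that modulates survival signalling, read 8.59 and 8.76 in the A2780 controls, 10.60 and 10.55 in heated A2780, 8.43 and 8.52 in the SKOV3 controls and 8.79 and 8.58 in heated SKOV3. The heated A2780 arrays stood apart from the other 6. IER3 rose by 1.90 ± 0.13 in A2780, 3.72-fold, and its change in SKOV3 was 0.21 ± 0.13 (adjusted p = 0.498). The difference of -1.68 ± 0.19 (adjusted p = 0.00211) stayed past the threshold without each array in turn and had an adjusted p of 0.0674 with median scaling.

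Other immediate early genes gave the background to these 2. The list of immediate early transcription factors also holds IER3, which is not one, and was chosen with earlier results of these data known. Of its 30 genes, 26 were tested. EGR1 and IER3, 2 of the 26, passed the test of the difference, both negative, against 0.0987% of all genes. In A2780 11 of the 26 rose and 0 fell (2.23% and 2.29% of all genes did), and in SKOV3 10 rose and 2 fell (1.50% and 1.68%). The median difference over the 26 was -0.22, against -0.01 over all genes. Relative to the median gene it was -0.21, and -0.22 with median scaling. JUN, an AP-1 subunit, had a difference of -1.01 ± 0.18 (adjusted p = 0.0575), and both of its A2780 controls, at 6.05 and 5.94, were not above background. With them at the floor it was -0.63, a lower bound on its size. FOS, its partner, changed by 5.42 in A2780 and 5.36 in SKOV3, a difference of -0.06, and ATF3 by 1.11 and 1.13. FOSB had 3.52 and 2.77, with a difference of -0.74 ± 0.24 (adjusted p = 0.437).

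HBEGF encodes a membrane-anchored ligand of the EGF receptor that can be shed. It read 6.98 and 6.83 in the A2780 controls and 9.59 and 9.49 in heated A2780. In SKOV3 it read 7.45 and 7.40 at 37 °C and 8.97 and 9.02 at 46 °C. The order of the lines was therefore opposite at the 2 temperatures. HBEGF rose by 2.64 ± 0.13 in A2780 (6.22-fold) and by 1.57 ± 0.13 in SKOV3 (2.98-fold), a difference of -1.06 ± 0.18 (adjusted p = 0.0396). SKOV3 was 0.52 above A2780 at 37 °C (adjusted p = 0.00624) and at 46 °C the difference was -0.54 (adjusted p = 0.00583). This adjusted p was the highest of the 14. The call was lost without each array except A2780 control 1, with adjusted p-values of 0.0681 to 0.322 in those 7 fits, and with median scaling (-0.80, adjusted p = 0.0969). With no background correction its adjusted p was 0.0502.

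STC2, a secreted glycoprotein and known ATF4 target, had the largest difference of the genes that passed. It read 8.43 and 8.10 in the A2780 controls, 10.29 and 10.33 in heated A2780, 8.72 and 8.61 in the SKOV3 controls, and 8.62 and 8.61 in heated SKOV3. The deposited signals were 468 and 520 in the A2780 controls and 1334 and 1140 in heated A2780, and 388 to 436 over the 4 SKOV3 arrays. The 4 SKOV3 arrays all lay between 8.61 and 8.72 on the normalized log2 scale, while the heated A2780 arrays were the highest of all 8. STC2 rose by 2.04 ± 0.14 in A2780, 4.12-fold, and its change in SKOV3 was -0.05 ± 0.14 (adjusted p = 0.91). The difference was -2.10 ± 0.19 (adjusted p = 0.000784, 95% interval -2.51 to -1.68). It remained past the threshold without each array and with median scaling (adjusted p = 0.00404).

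CHAC1 degrades glutathione and is another gene known to follow ATF4. It read 6.31 and 6.55 in the A2780 controls, of which 1 was above background, and 8.45 and 8.39 in heated A2780. The SKOV3 controls, at 5.91 and 6.17, were not above background, and heated SKOV3 read 6.82 and 6.45. CHAC1 rose by 1.99 ± 0.15 in A2780. The change of 0.59 ± 0.15 in SKOV3 did not pass (adjusted p = 0.0566). With the SKOV3 controls placed at the lowest level above background, the estimated change was at least 1.14-fold. The difference was -1.39 ± 0.22 (adjusted p = 0.0253), and it was -1.80 with the controls at that level. A SKOV3 control level below background makes the true response of SKOV3 larger than the floored one, so -1.80 is not a lower bound on the size. A2780 control 1, also not above background, was left as read, so -1.80 is not a strict upper limit either. The call was lost without 5 of the 8 arrays: both A2780 hyperthermia arrays, both SKOV3 controls and SKOV3 hyperthermia 2 (adjusted p = 0.0654 to 0.264). With median scaling its adjusted p was 0.0674.

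Most other genes of the integrated stress response did not pass. Of 25 listed, 23 were tested, 5 rose in A2780 (2.23% of all genes) and 1 in SKOV3 (1.50%), where 1 also fell (1.68%), and 2 passed the test of the difference (0.0987%). Relative to the median gene the list's median was -0.10, and 0.00 with median scaling. PPP1R15A, which restores translation by dephosphorylating eIF2, rose by 3.29 in A2780 and 3.26 in SKOV3, a difference of -0.02. DDIT3, a pro-apoptotic factor, had 0.66 and 0.21. TRIB3, a pseudokinase, had 0.53 and -0.20 with a difference of -0.73 ± 0.19 (adjusted p = 0.322), and ATF5 had -0.08 and -0.89 with a difference of -0.81 ± 0.21 (adjusted p = 0.298). ATF4 itself changed by 0.32 and 0.10, past the test in neither line.

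CITED2 binds the coactivators CBP and p300 and limits hypoxia-inducible factor. It started far apart in the 2 lines: 8.97 and 8.77 in the A2780 controls against 13.09 and 13.17 in the SKOV3 controls. Heated A2780 read 10.08 and 9.98, and heated SKOV3 12.88 and 12.55. CITED2 rose by 1.16 ± 0.14 in A2780 and its change in SKOV3 was -0.42 ± 0.14 (adjusted p = 0.161), so the gap narrowed from 4.26 to 2.68. The difference was -1.58 ± 0.20 (adjusted p = 0.0055). It lost the call without A2780 hyperthermia 1 (0.0874), SKOV3 control 1 (0.0709) or SKOV3 control 2 (0.0803). With median scaling the difference was -0.92 (adjusted p = 0.0959), the shift of the median gene included.

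TSC22D3, a leucine-zipper protein known as a glucocorticoid-induced gene, read 8.15 and 7.84 in the A2780 controls and 9.98 and 9.64 in heated A2780. SKOV3 read 7.49 and 7.30 at 37 °C and 7.65 and 7.71 at 46 °C. The heated A2780 arrays were again the highest. The rise in A2780 was 1.82 ± 0.15 and the change in SKOV3 0.28 ± 0.15 (adjusted p = 0.427), a difference of -1.54 ± 0.22 (adjusted p = 0.0143). A second probe of the gene, above background on all 8 arrays, gave -1.13 and also passed. The call was lost without A2780 control 2, A2780 hyperthermia 1 or either SKOV3 control (adjusted p = 0.0545 to 0.16), and with median scaling (-1.09, adjusted p = 0.076).

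TUFT1 encodes tuftelin, first described in tooth enamel. A2780 read 9.01 and 8.93 at 37 °C and 10.52 and 10.57 at 46 °C, and SKOV3 9.996 and 10.20, then 10.44 and 10.51. As with EGR1, the lines differed at 37 °C (1.13, adjusted p = 1.37e-05) and not past the test at 46 °C (-0.07, adjusted p = 0.766). The rise in A2780 was 1.58 ± 0.13 and the change in SKOV3 0.38 ± 0.13 (adjusted p = 0.158), a difference of -1.20 ± 0.18 (adjusted p = 0.0196). It was lost without A2780 control 2, either heated A2780 array or either SKOV3 control (adjusted p = 0.0801 to 0.24), and with median scaling it was -0.69 (adjusted p = 0.12).

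DHDH, a dihydrodiol dehydrogenase, and NPTX2, a secreted pentraxin known from synapses, started at or near background. DHDH read 6.26 and 6.20 in the A2780 controls, not above background, and 8.85 and 8.66 in heated A2780. In SKOV3 it read 6.90 and 6.81, then 8.01 and 7.86. DHDH rose at least 5.20-fold in A2780 (adjusted p = 1.68e-08) and 2.12-fold in SKOV3 (1.08 ± 0.13, adjusted p = 0.000203). Its difference was -1.44 ± 0.18 (adjusted p = 0.0055), and -1.29 with the A2780 controls at the floor, which is a lower bound on its size. The call was lost without A2780 hyperthermia 1 or either SKOV3 control (adjusted p = 0.0618 to 0.0903). With no between-array normalization its adjusted p was 0.0719. NPTX2 read 6.24 and 6.11 in the A2780 controls and 6.12 and 6.11 in the SKOV3 controls, all 4 not above background. Heated A2780 read 8.19 and 8.16, and heated SKOV3 7.06 and 6.87. NPTX2 therefore ended higher in A2780, by 1.21 on the log2 scale (SKOV3 minus A2780 -1.21, adjusted p = 7.19e-06). It rose at least 3.48-fold in A2780 and at least 1.43-fold in SKOV3. Both responses are bounds, so the difference of -1.15 ± 0.18 (adjusted p = 0.0253) has no bound of its own. It was lost without 6 of the 8 arrays, the exceptions being A2780 control 1 and SKOV3 hyperthermia 1 (adjusted p = 0.0689 to 0.247). With median scaling its adjusted p was 0.0568.

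The 4 genes with a more positive response in SKOV3 all started higher in A2780. CDKN1A, the p21 inhibitor of cyclin-dependent kinases and a main p53 target, read 9.96 and 10.28 in the A2780 controls, 10.16 and 10.24 in heated A2780, 6.68 and 6.64 in the SKOV3 controls and 8.08 and 7.99 in heated SKOV3. The 4 SKOV3 arrays were all below the 4 of A2780. CDKN1A rose by 1.37 ± 0.14 in SKOV3, 2.59-fold, and its change in A2780 was 0.08 ± 0.14 (adjusted p = 0.824). The difference was 1.29 ± 0.19 (adjusted p = 0.0189), and the gap narrowed from -3.46 to -2.16. A second probe, above background on 3 arrays, changed by 1.02 in A2780 and by 0.31 in SKOV3. Its difference was -0.71, the opposite direction, and the mean of the probes gave 0.29 (adjusted p = 0.658). With the authors' log2 values the difference of the first probe was 0.98 (adjusted p = 0.0922), and with no background correction 0.96 (adjusted p = 0.104). The call was lost without A2780 control 2, either heated A2780 array or either SKOV3 control (adjusted p = 0.069 to 0.213).

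Among 16 tested p53 targets of 18 listed, CDKN1A alone passed the test of the difference (0.0987% of all genes did), and the median was 0.01. In A2780 3 rose (2.23% of all genes) and 1 fell (2.29%), and in SKOV3 3 rose (1.50%). GADD45A, a DNA damage and stress gene, had 1.05 and 0.45, a difference of -0.60 ± 0.19 (adjusted p = 0.424), and MDM2, the p53 ubiquitin ligase, 0.27 and 0.49. SESN1, a stress-induced sestrin, had -0.70 and -0.12, a difference of 0.58 ± 0.22 (adjusted p = 0.508).

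RGS16 speeds the shut-off of G-protein signalling. It read 10.30 and 10.80 in the A2780 controls, 10.14 and 10.23 in heated A2780, 6.67 and 6.77 in the SKOV3 controls and 7.85 and 7.82 in heated SKOV3. The rise in SKOV3 was 1.12 ± 0.16 (2.17-fold) and the change in A2780 -0.36 ± 0.16 (adjusted p = 0.235), with A2780 control 2 the highest array. The difference was 1.48 ± 0.22 (adjusted p = 0.0189). It was lost without either heated A2780 array or either SKOV3 control (adjusted p = 0.134 to 0.211). With the authors' log2 values it was 1.19 (adjusted p = 0.105), and with no background correction 1.19 (adjusted p = 0.108). RGS2, of the same family, rose by 2.15 in A2780 and 3.64 in SKOV3, and its difference of 1.49 ± 0.28 did not pass (adjusted p = 0.0705). Of the 9 tested genes among 11 listed RGS and G-protein regulators, RGS16 was the 1 that passed (0.0987% of all genes did).

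DKK1, a secreted Wnt antagonist, was high in A2780 and near background in SKOV3. It read 12.89 and 12.79 in the A2780 controls and 11.36 and 11.37 in heated A2780. In SKOV3 both controls read 6.42, not above background, and the heated arrays 6.54 and 6.47. In A2780 the deposited signals went from 8510 and 9514 to 2909 and 2364, and in SKOV3 they were 129 to 140. DKK1 fell by 1.48 ± 0.12 in A2780 on the log2 scale (adjusted p = 3.16e-06), and its change in SKOV3 was 0.08 ± 0.12 (adjusted p = 0.82). The difference was 1.56 ± 0.17 (adjusted p = 0.00211), and 1.53 with the SKOV3 controls at the floor, a lower bound. With its controls not above background, SKOV3 could not have shown a fall. A second probe gave 1.52, also past the test, and the call held without each array in turn.

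SNORA12, a small nucleolar RNA of the H/ACA class that guides pseudouridylation, read 8.84 and 8.24 in the A2780 controls and 6.85 and 6.59 in heated A2780. In SKOV3 it read 6.47 and 6.50, then 6.17 and 6.26, the last 2 not above background. SNORA12 fell by 1.82 ± 0.18 in A2780 (adjusted p = 1.71e-05), and its value in SKOV3 was -0.27 ± 0.18 (adjusted p = 0.528). The difference was 1.55 ± 0.25 (adjusted p = 0.0279), and 1.79 with the heated SKOV3 arrays at the floor, which is an upper limit. As for DKK1, the SKOV3 controls lay too close to the floor to show a fall as large as that of A2780. It was lost without either heated A2780 array, either SKOV3 control or SKOV3 hyperthermia 2 (adjusted p = 0.0673 to 0.283). With the authors' log2 values it was 1.28 (adjusted p = 0.105), and with no background correction 1.27 (adjusted p = 0.108).

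**Figure D2:**
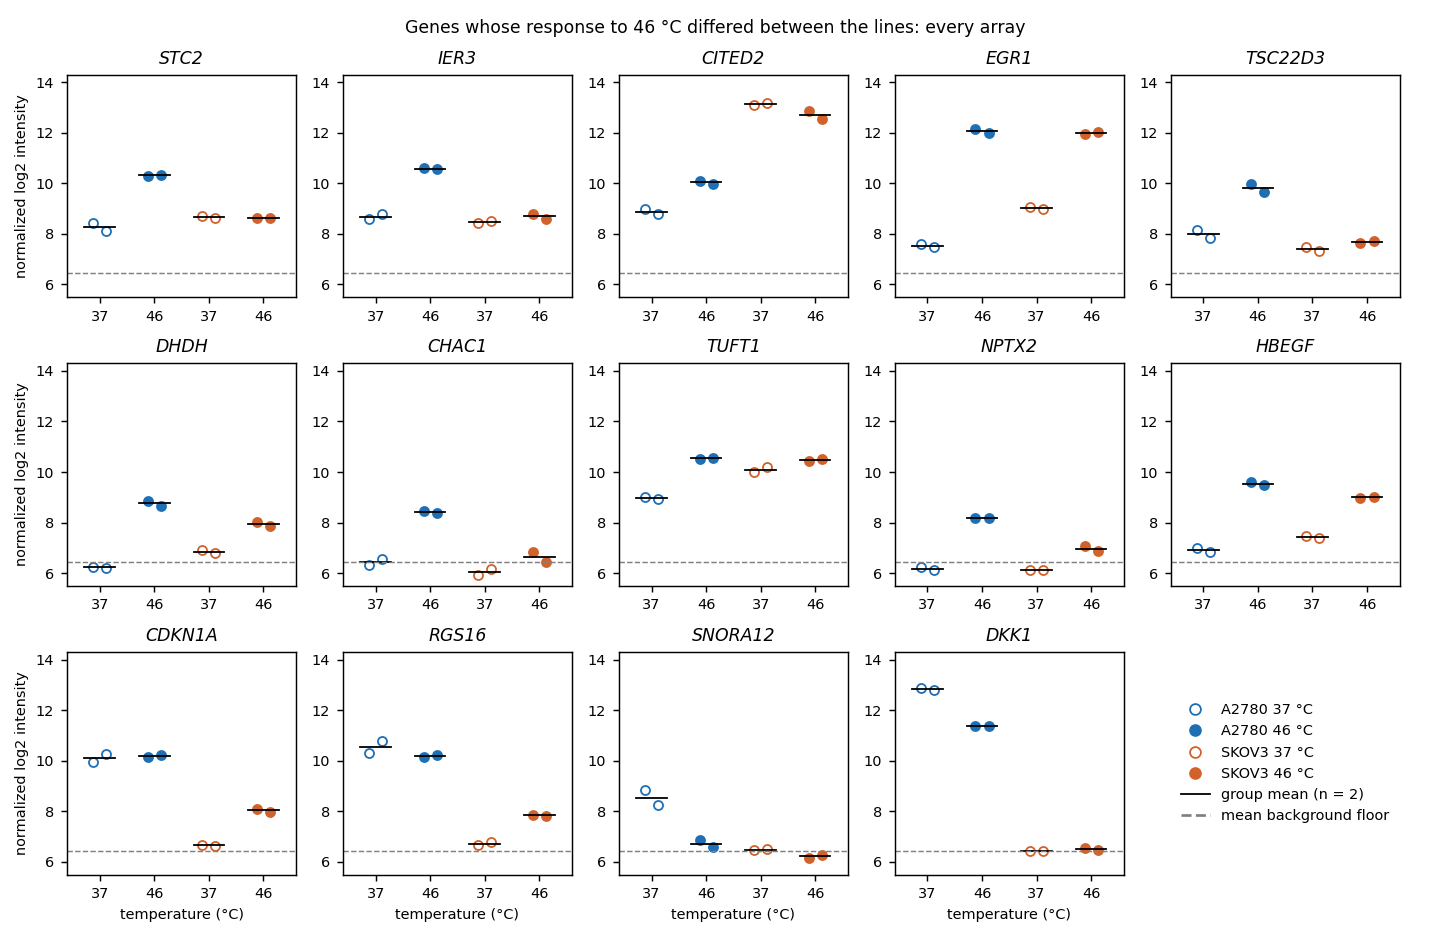
Normalized log2 intensity of the 14 genes on every array: open points 37 °C, filled points 46 °C, blue A2780, orange SKOV3, black bars group means (n = 2), dashed line the mean background floor over the arrays. DKK1, SNORA12, CHAC1, NPTX2 and DHDH have a group at the floor; EGR1 and TUFT1 reach one level at 46 °C from different levels at 37 °C.

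The difference between the responses is by construction the gap between the lines at 46 °C minus the gap at 37 °C, so the gaps of the 14 describe how each difference arose and are no further evidence of it. The lines differed past the test in 11 of the 14 at 37 °C (29.3% of all genes did) and in 11 at 46 °C (24.0%), 8 of them at both. Since the genes were chosen on the change of this gap, nothing is read from these counts. EGR1, TUFT1 and SNORA12 differed at 37 °C and did not pass at 46 °C, while IER3, CHAC1 and NPTX2 differed at 46 °C and not past the test at 37 °C. The gap was smaller at 46 °C in 7 genes and larger in 7. At 37 °C DKK1 had the widest gap, -6.42 (SKOV3 minus A2780), followed by CITED2 at 4.26, RGS16 at -3.83 and CDKN1A at -3.46, and all 4 kept a gap past the test at 46 °C, of -4.86, 2.68, -2.35 and -2.16. STC2 went from 0.40 (adjusted p = 0.0427) to -1.70 (adjusted p = 4.73e-07).

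**Figure D3:**
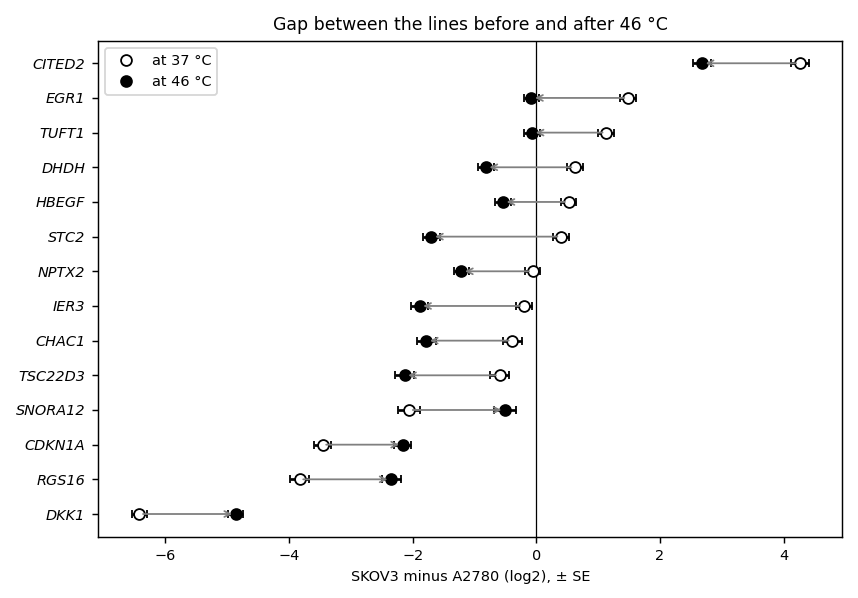
Gap between the lines (SKOV3 minus A2780, log2, ± SE of the fit, n = 2 per group) at 37 °C (open) and 46 °C (filled) for the 14 genes, joined by an arrow. DKK1 moves from -6.42 to -4.86, CITED2 from 4.26 to 2.68, and EGR1 from 1.48 to -0.08.

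Of the 14, 9 had arrays above background in every group, and 5 (DHDH, CHAC1, NPTX2, DKK1 and SNORA12) had at least 1 group with no array above it. Over all genes tested, 4527 (31.9%) had such a group, a share near that among the 14. The lowest normalized value above background was 6.34 to 6.47 over the arrays. When all signals below background were set to the background level before the fit, 2 genes passed, 1 in each direction, and 1 of them was among the 14 (DKK1). In that fit the prior degrees of freedom fell from 9.39 to 1.17. In that fit STC2 was -1.92 and EGR1 -1.34 (adjusted p = 0.063 for each). Both genes were above background on all 8 arrays, so the floor left their values as they were. Their sizes were the same with no background correction and a floor of 16 (adjusted p = 0.00202 and 0.00811).

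The 2 lines' own responses give the setting. A2780 had 641 genes past the test of its response (4.52%), of which 316 rose (2.23%) and 325 fell (2.29%). SKOV3 had 451 (3.18%), of which 213 rose (1.50%) and 238 fell (1.68%). Both lines called 249 genes, which is 38.8% of the A2780 calls and 55.2% of the SKOV3 calls, and all 249 moved the same way. Of the 392 genes called in A2780 alone, 8 passed the test of the difference, and of the 202 called in SKOV3 alone, 2 did. Of the 249 shared, 4 passed. Most calls made in 1 line alone therefore came without a tested difference between the lines.

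The chaperone genes illustrate this. Of 36 cytosolic chaperone and co-chaperone genes listed, 34 were tested, 14 rose in A2780 (2.23% of all genes) and 9 in SKOV3 (1.50%), and 0 passed the test of the difference, with 6 at an unadjusted p under 0.05 (8.54% of all genes). HSPA6, an inducible HSP70, read 6.55 on both A2780 controls and 6.64 and 6.50 in the SKOV3 controls. It rose to 13.82 and 13.81 in A2780 and to 13.85 and 13.56 in SKOV3. The rises of 7.26 and 7.14 differed by -0.12 ± 0.19 (adjusted p = 0.883), with a 95% interval of -0.53 to 0.29. HSPA1A, the main inducible HSP70, read 6.06 and 6.09 in the A2780 controls and 6.28 and 6.32 in the SKOV3 controls, none above background. It reached 13.10 and 13.00 in A2780 and 12.44 and 12.34 in SKOV3, a rise of at least 102-fold and at least 61.3-fold. Its difference of -0.88 ± 0.17 did not pass (adjusted p = 0.0792) and, with both responses bounds, has no bound itself, and the near-identical gene HSPA1B (-0.48) may share its signal. DNAJB1, the HSP40 partner of HSP70, had 2.90 and 3.26, a difference of 0.36 ± 0.19 (adjusted p = 0.617). SERPINH1, the collagen chaperone, had the largest difference of the list, 1.04 ± 0.25 (adjusted p = 0.22), from -0.44 in A2780 and 0.60 in SKOV3. Relative to the median gene the list's median was -0.15, and -0.09 with median scaling.

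The signals of structured noncoding RNAs rose widely in both lines. The arrays measured labelled cRNA, and whether the signal follows the amount of these RNAs, or of SNORA12, was not tested. Of 26 listed, mostly transcribed by RNA polymerase III or part of the spliceosome, 22 were tested, and 19 rose in A2780 (2.23% of all genes did) and 16 in SKOV3 (1.50%), with 0 past the test of the difference and 10 at an unadjusted p under 0.05 (8.54% of all genes). The RNAs of RNase MRP and RNase P, which process ribosomal and transfer RNA precursors, had positive values that did not pass. RMRP read 6.25 and 6.19 in the A2780 controls and 6.17 and 6.04 in the SKOV3 controls, not above background, and 10.66 and 10.38 in heated A2780 against 11.85 and 11.43 in heated SKOV3. Its difference was 1.23 ± 0.22 (adjusted p = 0.061), and 1.04 with the controls at the floor. Both of its responses are bounds, so the difference has none. RPPH1 had responses of 3.58 and 4.69 and a difference of 1.11 ± 0.20 (adjusted p = 0.061). Of the 22, however, 17 had a difference below 0 (7404 of all 14189 genes did). Of the 10 at an unadjusted p under 0.05, 8 were negative (677 of 1212 over all genes). Negative members included RNU11 of the minor spliceosome, -0.98 ± 0.22 (adjusted p = 0.179), and the Y RNA RNY1, -0.88 ± 0.29 (adjusted p = 0.443). RN7SK, which holds the elongation factor P-TEFb, rose by 5.92 and 5.63, a difference of -0.29. Relative to the median gene the median of the list was -0.30, and -0.33 with median scaling.

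Replication-dependent histone genes, whose transcripts normally lack a poly(A) tail, had mostly negative differences relative to the median gene and no gene past the test. Of 26 listed, 22 were tested, 19 had a difference below 0 and 9 had an unadjusted p under 0.05, all 9 negative, where 8.54% of all genes had such a p. In A2780 6 rose (2.23% of all genes) and 0 fell, and in SKOV3 0 rose and 2 fell (1.68%). H4C8 had 0.92 in A2780 and 0.06 in SKOV3, a difference of -0.86 ± 0.20 (adjusted p = 0.214), and H4C3 had -0.07 and -1.02, a difference of -0.95 ± 0.29 (adjusted p = 0.411). The list's median of -0.27 was -0.26 relative to the median gene, and -0.31 relative to it both with median scaling and with no scaling between arrays, where the list's own medians were -0.04 and 0.08.

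Of the other lists, 14 of 20 growth factors and secreted ligands were tested and held 3 of the 14 genes (STC2 and HBEGF negative, DKK1 positive), where 0.0987% of all genes passed. This list too was chosen with earlier results of these data known, so nothing is read from that share. STC2 is also counted in the list of the integrated stress response. The test was passed by 0 of 14 tested MAP kinase phosphatase and Sprouty genes, 0 of 9 mRNA decay regulators, 0 of 16 NF-kB targets and chemokines and 0 of 14 HOX genes, with 5, 3, 3 and 5 at an unadjusted p under 0.05 (8.54% of all genes). ZFP36L1, an mRNA decay factor, had 0.75 in A2780 and -0.42 in SKOV3, a difference of -1.17 ± 0.22 (adjusted p = 0.0705). CXCL1, a neutrophil chemokine, was not above background in either A2780 group, where its response was not measured, and read 10.16 and 9.77 in the SKOV3 controls and 8.72 and 8.15 in heated SKOV3, a difference of -1.39 ± 0.26 (adjusted p = 0.0705). SPRY4, a feedback inhibitor of receptor tyrosine kinases, had 0.92 ± 0.20 (adjusted p = 0.155). The median of the 14 tested HOX genes was -0.31 relative to the median gene, and -0.16 with median scaling. After RMRP and RPPH1, the positive differences with the smallest p that did not pass were RHBDL2, a rhomboid protease, at 1.09 ± 0.20 (adjusted p = 0.07), and ABRAXAS1, a BRCA1-complex subunit, at 1.12 ± 0.21 (adjusted p = 0.0705).

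**Figure D4:**
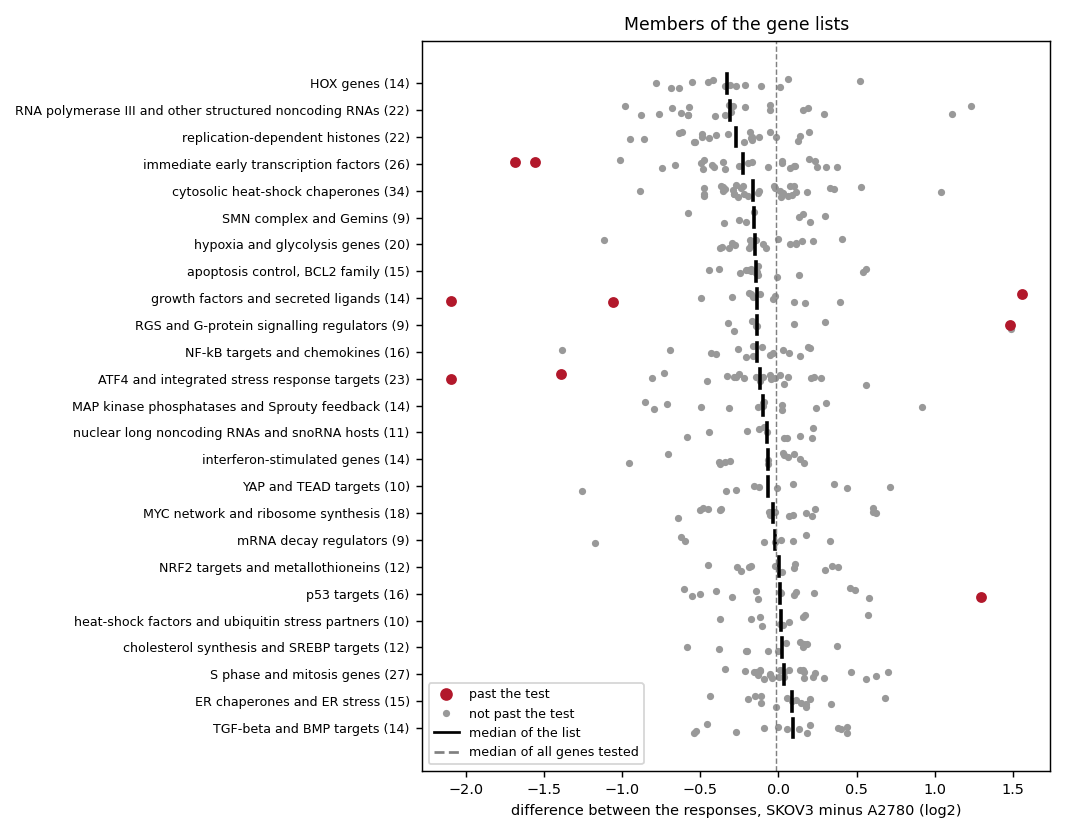
Difference between the responses (SKOV3 minus A2780, log2) of each tested member of the gene lists, with the number tested after each name, the list median as a bar, the median of all genes as a dashed line, and members past the test in red. The lists of structured noncoding RNAs, histones and HOX genes have the lowest medians, -0.31, -0.27 and -0.33, with no red member. With median scaling these medians were -0.06, -0.04 and 0.11, where the median of all genes was 0.27.

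**Figure D5:**
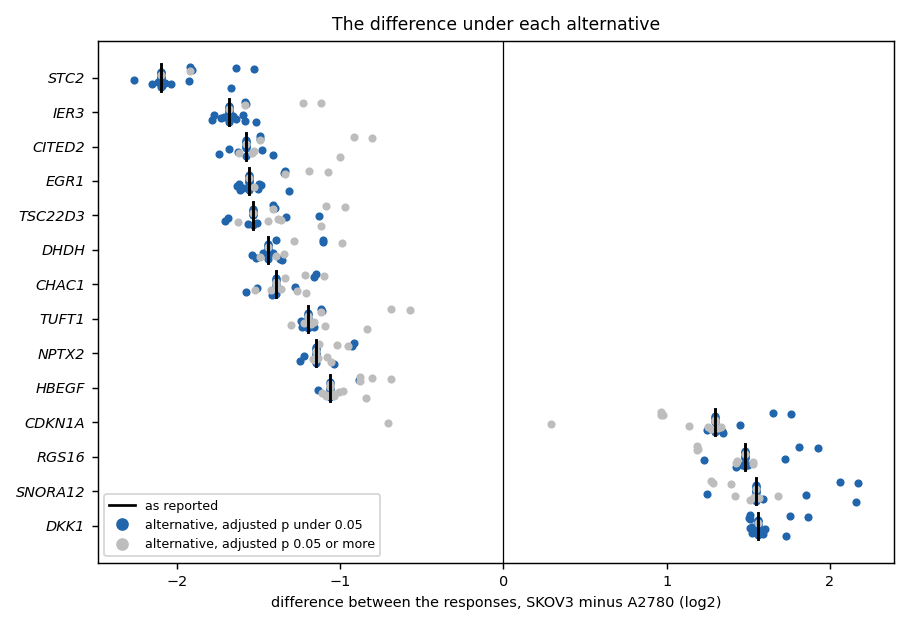
Difference between the responses (SKOV3 minus A2780, log2) of the 14 genes as reported (black bars) and under each alternative of the processing, blue where the adjusted p was under 0.05 and grey otherwise. The sign was kept everywhere except for CDKN1A with its second probe (-0.71).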

How the data were processed

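Biotin-labelled cRNA from 8 samples, 2 for each line and temperature (37 °C and 46 °C), was measured on arrays of 47231 probes, per the labels' protocols. The deposited signal table holds linear probe intensities exported by the authors with BeadStudio, per the submitters' processing notes, neither background-subtracted nor normalized between arrays. The deposited table of log2 values by the authors lay within 0.0246 of a quantile normalization of those signals and was used as an alternative.

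Signals were corrected with normexp (offset 50), quantile-normalized and put on the log2 scale with limma 3.58.1 in R 4.3.3. Figures were drawn with matplotlib 3.10.9 in Python 3.11.15. Probes were named from the platform annotation: 30113 had 1 symbol, 8 several and 17110 were not listed. Of these, 30074 were matched by gene identifier to the RefSeq table. A probe was kept if its mean exceeded 6.16, the 40th percentile, as 28338 did. Each gene was read from its brightest kept probe (14189 genes, 4032 of them with several). Background was estimated per array as the 99th percentile of a normal curve fitted to the mode of the log2 signals and the values below it. The floor was the lowest normalized value above it. Where a group had no array above background, a fold is given against the floor. The number of arrays limits the precision.

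One linear model of the 4 groups gave all contrasts (4 residual and 9.39 prior degrees of freedom, two-sided, Benjamini-Hochberg over all genes, threshold 0.05). It was tested on simulated data. The members and lists were chosen with earlier results of these data known. Genes were named by this rule: past the test with responses that do not overlap, up to 12 per direction, filled up to 8 by smallest p, plus the 4 largest differences of each list described, and HSPA1A, HSPA6 and DNAJB1. After values were seen, the lists described were limited to 12 of the 31 and their members to those with an unadjusted p under 0.05. FOS, ATF3, ATF4, PPP1R15A, DDIT3, MDM2, HSPA1B and RN7SK were named after their values were seen, as list members known for their role. The promoters printed were chosen after the motif search. Replicate numbers did not serve as pairs, since deviations from the group means of same-numbered samples correlated at 0.073 in A2780 and -0.25 in SKOV3. Across the lines these correlations were 0.18 between the controls and 0.29 between the heated groups. They were -0.26 between A2780 controls and heated SKOV3, and -0.073 between heated A2780 and SKOV3 controls. The cause was not tested. No column of the tables was left unused.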

Additional observations from a re-analysis of the deposited data

Results flagged for a closer look

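Each of the 14 genes below is listed because the 2 lines' responses to 46 °C differed in the test of the difference itself (limma, SKOV3 minus A2780, log2, ± SE, n = 2 per group). More negative in SKOV3 were STC2 (-2.10 ± 0.19), IER3 (-1.68 ± 0.19), CITED2 (-1.58 ± 0.20), EGR1 (-1.56 ± 0.18) and TSC22D3 (-1.54 ± 0.22). So were DHDH (-1.44 ± 0.18), CHAC1 (-1.39 ± 0.22), TUFT1 (-1.20 ± 0.18), NPTX2 (-1.15 ± 0.18) and HBEGF (-1.06 ± 0.18). More positive in SKOV3 were CDKN1A (1.29 ± 0.19), RGS16 (1.48 ± 0.22), SNORA12 (1.55 ± 0.25) and DKK1 (1.56 ± 0.17). STC2, IER3 and DKK1 stayed past the threshold without each of the 8 arrays in turn. The other 11 lost it without at least 1 array.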

How the results depend on the processing

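Of the 350 values that the 14 genes took under 25 alternatives, 237 kept their direction and their side of the threshold, 112 kept the direction and lost the threshold, and 1 reversed: CDKN1A with its second probe (-0.707). The cause was not tested. As reported, 14 genes passed, 4 positive and 10 negative. The counts were 11 (1 and 10) with no background correction and a floor of 16, 12 (10 and 2) with median scaling, 8 (7 and 1) with no between-array normalization and 12 (1 and 11) with the authors' log2 values. They were 2 (1 and 1) with signals below background set to the background level, 27 (9 and 18) with no filter, 27 (9 and 18) with array weights and 0 with a minimum difference of 2-fold. Median scaling, which moved the median gene by 0.27, was run without A2780 control 2 as well, after seeing the data, and gave 38 (28 and 10). Leaving out each array gave 3 to 116 genes, of which 1 to 56 were positive and 2 to 60 negative. With replicate number as a block within each line 10 passed (3 and 7), with the number shared by both lines 15 (5 and 10), and with the SKOV3 hyperthermia numbers crossed, a pairing added after seeing the data, 26 (9 and 17). The block ended the calls of CHAC1, TUFT1, NPTX2, HBEGF and CDKN1A within lines (adjusted p = 0.0536 to 0.123). Over all probes, named or not, 20 passed, an alternative also added after seeing the data. They included a probe of SGK1, a named gene outside the 14. It changed by 3.02 in A2780 and 1.90 in SKOV3, a difference of -1.12 (adjusted p = 0.0318 in that fit).

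Some values of genes that had not passed changed sign. With median scaling and with no between-array normalization the median of all genes was itself 0.27 and 0.385 (0.188 with median scaling without A2780 control 2), and the values given here under those settings all lay below it. HSPA6 was 0.0993 with median scaling, 0.213 with no normalization, -0.269 to 0.0220 without each array in turn (above 0 without SKOV3 hyperthermia 2) and 0.0297 with median scaling without A2780 control 2. With no normalization BTG3 was 0.00782, ZFP36 0.0638, AEN 0.0224, NFKB1 0.0900, HOXB8 0.0245 and HOXB5 0.0183, and with median scaling without A2780 control 2 HOXB5 was 0.0171. With the second probe HOXB3 was 0.313 and HOXC6 0.281, and the cause was not tested.

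With 2 arrays per group, and signals of many genes near background in a line, small differences between the responses could not be measured here.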

Other observations

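The widest positive difference that missed the test was 1.94 ± 0.97 for MIR1282, a microRNA gene on chromosome 15, named after its value was seen. It rested on 1 array: SKOV3 hyperthermia 1 read 9.82 and SKOV3 hyperthermia 2 read 6.37, against 6.19 and 6.67 in the SKOV3 controls and 5.83 to 6.23 in A2780 (adjusted p = 0.603). ANKRD1, a YAP target named after its value was seen, had no array above background in A2780, read 12.29 and 12.46 in the SKOV3 controls and 11.61 and 11.07 in heated SKOV3, and had a difference of -1.25 ± 0.24 (adjusted p = 0.0705).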
